A study of Mus musculus with 4 samples.

Results

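Tight chains of distal accessible regions are places where the genome of naive CD4 T cells was open at several spots in a row, away from the ends of protein-coding genes. They were taken from a list of 64525 accessible regions from ATAC-seq, an assay whose transposase inserts sequencing tags where DNA is not wrapped on nucleosomes. A region counted as distal on chromosomes 1 to 19 when it lay more than 1 kb from every end of a protein-coding gene and in no protein-coding gene over 500 kb. Neighbouring distal regions were joined when the gap was 3000 bp or less, and chains of 5 or more regions were kept. The result was 19 chains that held 104 of the 48835 distal regions. A further 24 chains with 152 regions were left out by the rule: 4 in an interval of chromosome 1, 4 on chromosome 4, 7 on chromosome 5, 4 on chromosome 8 and 5 that began below 4 Mb. The members were chosen by the measured positions of the regions, so the number of chains, their sizes and their gaps are descriptions without a test.

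The study set Ddx55-knockout mice (labelled DDX55 KO, 2 libraries) against wild-type mice (WT, 2 libraries), with naive CD4 T cells from spleen and pLN, as the labels write it, in both. Ddx55 encodes a DEAD-box RNA helicase with a role in making the large ribosomal subunit. The knockout allele, any Cre driver, the age of the mice and whether replicates came from separate animals are not stated in the labels. The list is joint for all 4 libraries and holds positions on mouse build mm10 with no count, so depth per library is unknown, nothing below compares KO with WT, and no spread between libraries can be given.

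Distal accessible regions are often enhancers, DNA that binds transcription factors and raises the activity of a gene at a distance. Enhancers of genes that define a cell type tend to lie in clusters, and in T cells such clusters are well known at the T cell receptor loci and at lineage factor genes. Open chromatin away from coding genes also marks the start sites of long noncoding RNAs (lncRNAs), so a chain can hold starts as well as enhancers. Accessibility alone does not tell these apart.

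The sequences that could be read inside chains are those around annotated start sites. They are shown because a chain region there meets the window around a known transcript start, though not always the start itself. RefSeq promoter windows (250 bases before to 50 after a start, build GRCm38.p6, which mm10 names) lay within the span of 5 chains, 8 windows of 5 genes in all. Windows were available for the assigned gene of 11 of the 19 chains, so starts in other chains can be missing from this count. Chain regions overlapped 6 of the 8 windows, of Gm19497 in the Btg2 chain, 2310001H17Rik in the Cd69 chain and Jade1. The sequences are written 5′ to 3′ in the direction of the transcript, and capitals mark the bases inside an accessible region. The window of Gm19497, on the minus strand at chr1:134060898-134061197, and the downstream window of 2310001H17Rik, on the minus strand at chr6:129237996-129238295, lay wholly inside a region. The upstream window of 2310001H17Rik is chr6:129238433-129238732 on the minus strand, and the first and last of 3 Jade1 windows are chr3:41563133-41563432 and chr3:41564630-41564929 on the plus strand.
Gm19497: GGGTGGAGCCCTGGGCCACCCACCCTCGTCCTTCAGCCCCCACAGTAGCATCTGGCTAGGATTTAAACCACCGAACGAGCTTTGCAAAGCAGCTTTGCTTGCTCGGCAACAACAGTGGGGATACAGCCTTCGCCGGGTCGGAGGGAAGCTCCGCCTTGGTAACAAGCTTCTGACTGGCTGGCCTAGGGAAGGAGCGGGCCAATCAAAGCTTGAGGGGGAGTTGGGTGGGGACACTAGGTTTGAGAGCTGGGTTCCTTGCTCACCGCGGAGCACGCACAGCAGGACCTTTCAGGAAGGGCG
2310001H17Rik downstream: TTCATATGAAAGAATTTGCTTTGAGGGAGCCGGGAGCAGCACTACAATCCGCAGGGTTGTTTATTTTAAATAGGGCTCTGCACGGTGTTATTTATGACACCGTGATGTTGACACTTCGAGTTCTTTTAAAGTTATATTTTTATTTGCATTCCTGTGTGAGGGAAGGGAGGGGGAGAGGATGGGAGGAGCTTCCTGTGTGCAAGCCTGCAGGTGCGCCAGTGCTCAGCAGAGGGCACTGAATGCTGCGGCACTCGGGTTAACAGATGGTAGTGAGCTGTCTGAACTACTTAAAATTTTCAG
2310001H17Rik upstream: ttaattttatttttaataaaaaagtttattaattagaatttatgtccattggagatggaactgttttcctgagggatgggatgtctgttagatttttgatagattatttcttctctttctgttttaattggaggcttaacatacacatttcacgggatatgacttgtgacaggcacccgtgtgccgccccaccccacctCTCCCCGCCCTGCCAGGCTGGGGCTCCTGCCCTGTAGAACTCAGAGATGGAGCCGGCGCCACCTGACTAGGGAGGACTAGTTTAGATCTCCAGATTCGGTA
Jade1 first: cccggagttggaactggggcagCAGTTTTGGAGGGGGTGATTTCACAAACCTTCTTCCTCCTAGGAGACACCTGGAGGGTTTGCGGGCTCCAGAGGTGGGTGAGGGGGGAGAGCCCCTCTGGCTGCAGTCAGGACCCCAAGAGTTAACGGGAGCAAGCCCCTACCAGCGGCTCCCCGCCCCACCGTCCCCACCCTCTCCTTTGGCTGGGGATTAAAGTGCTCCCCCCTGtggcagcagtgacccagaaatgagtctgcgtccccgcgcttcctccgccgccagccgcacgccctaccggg
Jade1 last: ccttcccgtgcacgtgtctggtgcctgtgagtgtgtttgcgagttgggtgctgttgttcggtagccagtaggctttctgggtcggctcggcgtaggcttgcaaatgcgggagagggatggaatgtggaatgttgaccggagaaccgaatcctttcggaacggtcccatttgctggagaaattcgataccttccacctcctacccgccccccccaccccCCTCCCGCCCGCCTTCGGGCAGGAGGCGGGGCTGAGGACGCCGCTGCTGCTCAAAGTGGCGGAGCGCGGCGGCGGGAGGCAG

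The capitals show how differently the regions met these windows. At Gm19497 all 300 bases were accessible, in a region of 620 bp. At 2310001H17Rik a region of 972 bp covered the downstream window whole and 101 bases of the upstream window. At Jade1 the overlaps were 207, 12 and 82 bases from the first window to the last, so the middle one, chr3:41563501-41563800, was accessible only at its far edge. The start sites of the first and middle Jade1 windows, 41563383 and 41563751, lay outside the accessible regions. GC content was 65.0%, 66.3% and 63.7% in the Jade1 windows, 60.3% at Gm19497, and 47.0% and 44.7% in the downstream and upstream windows of 2310001H17Rik, against a median of 52.7% over the 32851 windows of the table. The Jade1 windows held 14, 38 and 25 CpG dinucleotides, against 13 at Gm19497, 8 and 7 at 2310001H17Rik and a median of 7 over all windows.

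Short motifs of T cell transcription factor families were searched on both strands of these 6 windows. AGGAAG, an ETS motif, was in 3 windows, and 35.4% of all windows in the table hold it. CTTTGA, a TCF/LEF motif, was in 3 (16% of all windows), CAGGTG, an E-box, in 3 (20.2%), CCACCC, a KLF motif, in 4 (31.5%) and GGAAAA, an NFAT motif, in 1 (23.4%). Within the accessible part, shown in capitals, the first ETS motif, the TCF/LEF motif and the E-box were each found in 3 windows, the KLF motif in 2 and the NFAT motif in 0. The letters CCGGAA (ETS, 14.9% of all windows), TGTGGT (RUNX, 16.8%), TGANTCA (AP-1, 7.81%), AGATAA (the motif of GATA factors, 11.2%) and TGTTTAC (forkhead, 3.65%) were in 0 of the 6. The ETS and NFAT motifs share the letters GGAA and can overlap. A longer IRF motif, held by 3.44% of all windows, was in 0 as well. A match describes the letters and is not a binding site.

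Chains were rare among distal regions. Of all runs of distal regions with gaps of 3000 bp or less, 38893 (89.6%) were single regions, 3840 (8.85%) held 2 regions, 542 held 3 and 95 held 4, before the intervals named above were left out. Of the 19 chains kept, 13 had 5 regions, 4 had 6, 1 had 7 and 1 had 8. They spanned 2.17 to 11.7 kb, with a median of 6.80 kb. Regions covered a median of 31.9% of the span (from 17.7% at Sntb1 to 57.4% at Tmem267). Chains lay on 11 of the 19 autosomes, with 5 on chromosome 6, 4 on chromosome 7, 2 on chromosome 17 and 1 on each of the other 8.

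**Figure D1:**
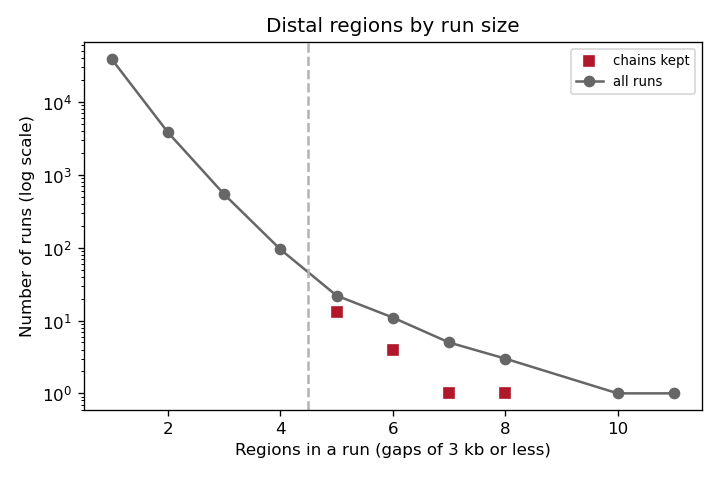
Number of runs of distal regions (log scale) against the number of regions in a run, joined with gaps of 3 kb or less: red squares are the 19 chains kept and grey points are all runs, before the named intervals were left out. The number of runs is lower at each larger size up to 8 regions, and the dashed line marks the limit of 5 regions, above which the kept chains are 13, 4, 1 and 1 at sizes 5 to 8.

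Within chains the gaps between regions ranged from 3 to 2855 bp, with a median of 804 bp over 85 gaps. The limit of 3000 bp sets their upper end. Of the 85 gaps, 15 were over 2000 bp and 7, in 6 chains, were 150 bp or less, about the length of DNA on a nucleosome or shorter. In the spans of the 19 chains, 0 held a region other than their members, so no chain was bridged across a region at a gene end. For 5 chains another distal region lay within 5 kb of either end, the closest being 3061 bp above the Gm45988 chain and 3301 bp above the Sntb1 chain.

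**Figure D2:**
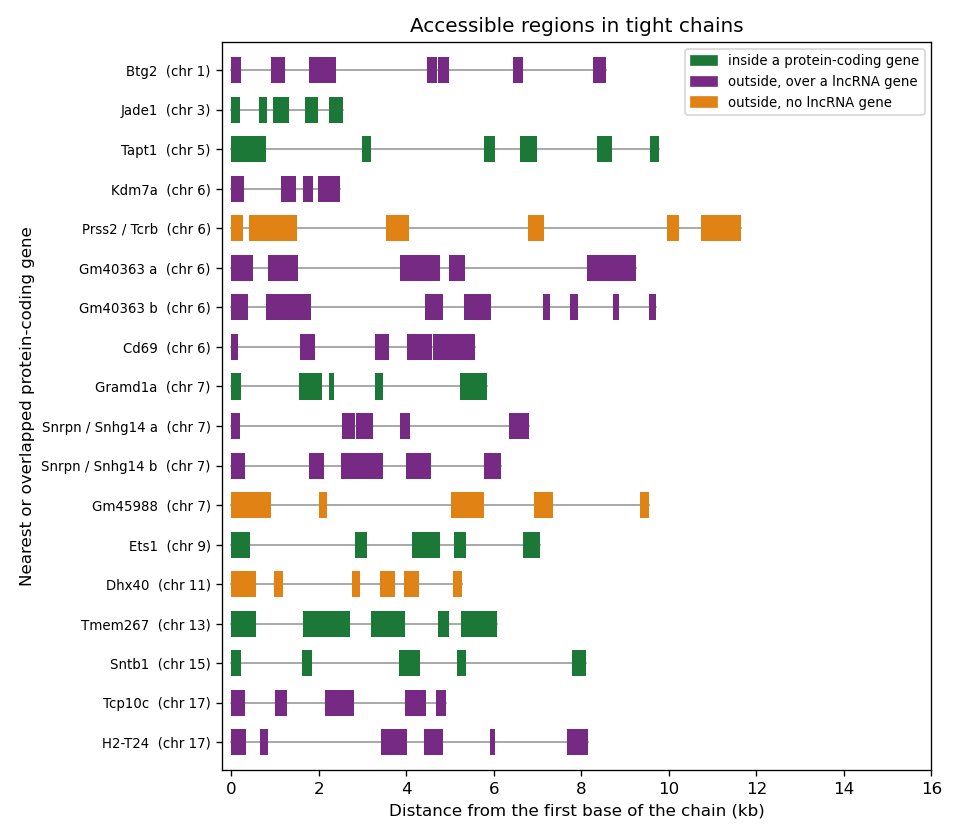
Each line is a chain (1 of the 19 is not drawn), and the x axis is the distance from its first base in kb. Boxes are accessible regions drawn to scale, coloured by whether the chain lies inside a protein-coding gene, outside such genes over a lncRNA gene, or outside without one; gaps of 3 bp (Snrpn / Snhg14 a) and 17 bp (Kdm7a) are too short to be seen. The chains at Kdm7a and Jade1 are the most compact of those drawn, each under 2.6 kb, and the chain in the T cell receptor beta locus (Prss2 / Tcrb) is the longest at 11.7 kb.

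The rule set no limit on region width, but gaps were measured between the edges of regions. A wider region leaves shorter gaps, so width was not independent of the rule. Chain regions had a median width of 318 bp (95% binomial interval of the median 293 to 381 bp, n = 104), against 265 bp for the other 48731 distal regions (263 to 266 bp). The lower and upper quartiles were 218 and 506 bp in chains and 199 and 413 bp in other distal regions, so most of both ranges overlapped. The median of the chain was above that of the other distal regions of its chromosome in 13 of 19 chains. The 6 below included Btg2 (242 against 261 bp), Kdm7a (207 against 257 bp), Gramd1a (214 against 272 bp), Dhx40 (276.5 against 280.0 bp) and Sntb1 (223 against 270.0 bp). The widest chain regions were 1123 bp at Gm40363, 1107 bp in the T cell receptor beta locus and 1094 bp at Tmem267. Neighbouring regions are not independent, so no test was run on these widths.

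**Figure D3:**
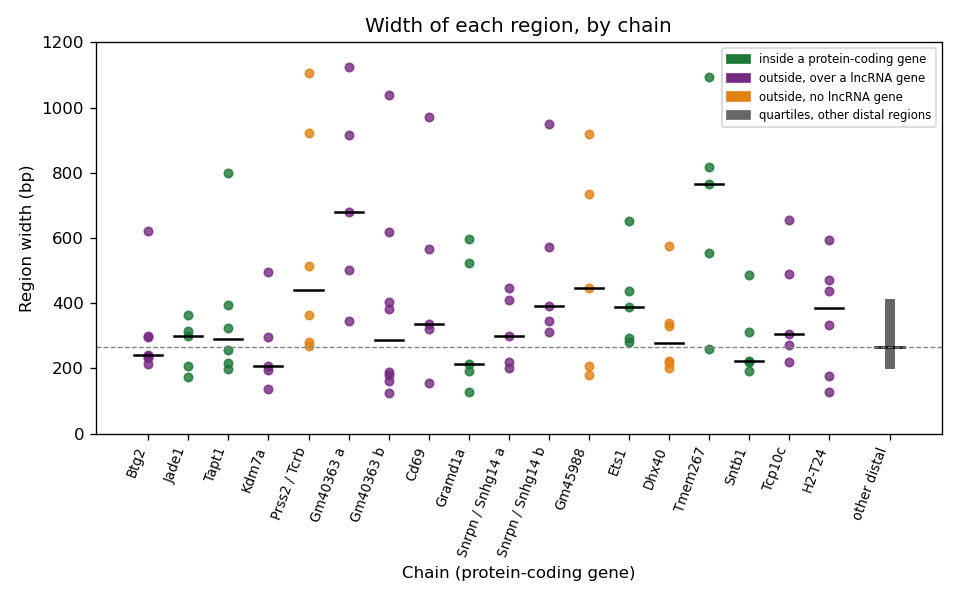
Width in bp of each chain region by chain (points, with 1 chain not drawn, coloured as in the map of chains; black lines are medians), with the quartiles and median of the 48731 other distal regions at the right and that median as a dashed line. The Tmem267 and first Gm40363 chains have the highest medians, 766 and 681 bp, and the Kdm7a chain has the lowest median, 207 bp.

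By the rule used here, chain regions lay inside lncRNA genes in a higher share than other distal regions did. The size of that difference, and the direction for protein-coding genes, depended on how chains were defined. A region was counted as inside a gene when it overlapped the gene at all. Some regions counted in lncRNA genes extend past their ends, whereas distal regions cannot cross the end of a protein-coding gene. Of the chain regions, 36 of 104 lay inside a protein-coding gene (34.6%, 95% exact interval 25.6 to 44.6%), against 43.8% of the other distal regions (43.4 to 44.3%), a value inside the interval of the chain regions. That direction turned with gaps of up to 5000 bp (54.4% of chain regions against 43.7% of other distal regions), with 4 or more regions (49.2% against 43.8%) and with gene ends of every kind of gene (63.2% against 45.0%). Inside a lncRNA gene lay 37 chain regions (35.6%, 26.4 to 45.6%), against 11.6% of the other distal regions (11.3 to 11.8%). In neither kind lay 31 (29.8%, 21.2 to 39.6%), against 47.2% (46.8 to 47.7%). Of the 37 in lncRNA genes, 10 came from the pair of chains in Snhg14; without that pair the share was 28.7%. The lncRNA share was higher in chains under all 11 alternatives, of which some left the same 104 chain regions and so repeat the main share. But it fell to 13.7% of chain regions with gaps of up to 5000 bp, against 11.6% of other distal regions, and to 15.7% with 4 or more regions, against 11.6%. It was 17.5% of chain regions with gene ends of every kind of gene (against 8.87%), 19.9% with the dropped intervals kept (against 11.6%) and 22.3% with regions at gene ends included (against 11.6%). No interval is given for the lncRNA share under the alternatives, so whether the smaller differences exceed counting error was not tested. The intervals cover counting error only, and the regions of a chain share their place, so no test was run. By chain, 7 lay inside a protein-coding gene and 12 outside, and 9 of those 12 overlapped a lncRNA gene. Any overlap of the span counted. The members in the lncRNA gene ranged from 1 of 8 in the second Gm40363 chain to all 5 in chains such as that at Cd69. No count for other distal stretches stands beside the 9.

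The surroundings of the chains held more regions than those of other distal regions. In the 50 kb on either side, the chain's own members left out, there were 2 to 17 regions with a median of 7 over the 19 chains. Around the other distal regions the median was 3, with quartiles of 2 and 6. The count was above 3 for 16 chains. The lowest counts were 2 at the T cell receptor beta locus and 3 at Tapt1, and the highest were 17 and 14 at the Gm40363 chains. Each of these lies in the flank of the other, and so do the chains in Snhg14, with counts of 9 and 11. Their counts thus include members of the other chain. No test was run on these counts, since the chains were chosen for close neighbours.

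A chain was assigned to the protein-coding gene it overlapped or, outside genes, to the one with the nearest end. This gave 18 genes among the 20665 protein-coding genes of chromosomes 1 to 19, or 0.0871%. Of 144 T cell genes in 6 lists 3 had a chain (2.08%, 95% exact interval 0.432 to 5.97%). They were Ets1 among 30 T cell transcription factors, Cd69 among 25 activation-induced genes and Btg2 among 14 survival and cell cycle genes. Of these 3, only Cd69 kept a chain with gaps of 2000 bp or less and only Ets1 with gene ends of every kind of gene. That is 0.493% of the 203 listed genes in each case, against 1.48% by the rule used here. Btg2 and Ets1 were left without regions under 200 bp or with gaps of 150 bp or less merged (0.985%). These settings left 10, 11, 9 and 15 chains in that order, and their shares over all protein-coding genes were not computed. The lists of T cell receptor and signalling genes (30 genes), of cytokine receptors, homing and adhesion (20 genes) and of effector and regulatory genes (25 genes) had 0. Of 59 genes of B cells, myeloid cells, liver and neurons 0 had a chain (exact interval up to 6.06%). The count of 3 rests on few chains, and the lists were written with earlier results of these data known.

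Runs of 4 regions stood just outside the limit. Outside the dropped intervals there were 71 such runs, with a median region width of 300.5 bp, and 39 of them (54.9%) lay inside a protein-coding gene. They were assigned to 71 genes, or 0.344% of the protein-coding genes. Of the 144 T cell genes 7 had a run of 4, and of the 59 genes of other cells 0 had. The 7 included the transcription factor genes Satb1 (2 runs), Ikzf1 and Id2, and Il2ra, Cxcr4 and Itga6, which encode the interleukin-2 receptor alpha chain, a chemokine receptor and an integrin. The Il2ra run had a median width of 540 bp and a longest gap of 2107 bp. The Satb1 runs lay inside the gene and 229 kb from its nearest end.

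The longest chain lay in the T cell receptor beta locus, whose segments are joined in the thymus to form the beta chain of the receptor. It had 6 regions over 11.7 kb on chromosome 6 (41543418 to 41555074), and the widths in order were 267, 1107, 514, 364, 282 and 923 bp. The first region overlapped the J segment Trbj2-5 and the J segment pseudogene Trbj2-6, and the second, of 1107 bp, overlapped the J segment Trbj2-7. The third overlapped Trbc2, which encodes a constant region. The last 3 lay past Trbc2 (ending at 41548181) and before Trbv31 (starting at 41557693), the interval that is known to hold the enhancer of this locus. The widest regions, 1107 and 923 bp, thus stood near the opposite ends of the chain. The nearest protein-coding gene was Prss2, which encodes a trypsin of the pancreas, 18.3 kb away. Trbc2 and the segments are listed as gene segments and not as protein-coding genes, which is why these regions counted as distal, and the whole locus is annotated as Tcrb over 667 kb. The next distal region above the chain was 343 kb away.

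The Cd69 chain lay over the lncRNA gene 2310001H17Rik. Cd69 encodes an early activation marker that holds lymphocytes in tissue by binding the receptor S1pr1. Its 5 regions spanned 5.58 kb on chromosome 6 (129232953 to 129238533) and were 156, 337, 320, 566 and 972 bp wide. All 5 overlapped 2310001H17Rik, and the widest covered its start sites, as the capitals above show. The last 2 regions were 29 bp apart and were merged when gaps of 150 bp or less were closed, which left 4 regions and no chain. It was also lost without regions under 200 bp and with gene ends of every kind of gene. The chain lay 28.8 kb from the lower end of Cd69 (129267324 to 129275375), and 10 other regions lay within 50 kb of it. At the next lower distal region the gap was 3513 bp, just past the limit.

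The Btg2 chain was the only one with 7 regions, and was lost with gaps of 2000 bp or less and with gene ends of every kind of gene. Btg2 encodes an antiproliferative protein that promotes the shortening of mRNA tails and, with Btg1, helps keep T cells quiescent. The chain spanned 8.57 kb on chromosome 1 (134058962 to 134067531), 7.33 kb past the 3′ end of Btg2, which is on the minus strand. On its other side the protein-coding gene Fmod (134037254 to 134048280) ended 10682 bp below the chain. For the regions up to and including the one of 620 bp, the end of Fmod was nearer than that of Btg2. The widths in order were 212, 300, 620, 232, 242, 237 and 296 bp. The region of 620 bp covered the start of Gm19497, and 6 of the 7 regions were 300 bp or narrower. That region and the one before it overlapped Gm19497, a lncRNA gene of 0.908 kb. The pair after the widest region was 39 bp apart.

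The Ets1 chain lay inside its gene, and was lost with gaps of 2000 bp or less. Ets1 encodes a transcription factor of lymphocytes that is needed for T cell survival and maturation. Of the 5 regions, over 7.06 kb on chromosome 9 (32740871 to 32747929), the widths were 436, 293, 653, 282 and 389 bp. All were wider than the median of other distal regions on that chromosome, 275 bp. The chain lay 9.89 kb from the higher end of the gene (32636241 to 32757820), and 12 other regions lay in the flanks of 50 kb.

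The chain in the major histocompatibility complex lay next to H2-T24, which encodes a nonclassical class I protein. It had 6 regions over 8.14 kb on chromosome 17 (35993603 to 36001747), with widths of 126 to 593 bp and a median of 385 bp. It ended 1.72 kb from H2-T24 (36003471 to 36020800). The lncRNA gene A930015D03Rik overlapped 4 of the 6 regions. Class I genes of this family are near-identical copies in part, and whether reads were placed uniquely there was not tested.

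Near Gm40363 on chromosome 6 a pair of chains stood 3676 bp apart. The first had 5 regions over 9.25 kb (47739465 to 47748715) with widths of 503, 681, 916, 345 and 1123 bp, and all 5 overlapped the lncRNA gene Gm52861. The second had 8 regions, the most of any chain, over 9.70 kb (47752392 to 47762095), and widths of 381, 1038, 404, 619, 181, 190, 123 and 162 bp. In the second the 4 regions at the lower coordinates were 381 bp or wider and the 4 at the higher coordinates 190 bp or narrower. A run of 4 regions followed 7.76 kb further on, so that 18 regions lay within 33.1 kb. Past that run lie the genes of the Y RNAs Rny3 and Rny1, small noncoding RNAs that bind the protein Ro60, and a region overlapped each of them, 322 bp wide at Rny3 and 964 bp wide at Rny1. The nearest protein-coding gene, Gm40363, ended 1.14 kb below the first chain.

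Another pair of chains lay inside Snhg14, a lncRNA gene of 1177.4 kb on chromosome 7 that hosts snoRNAs in the imprinted Snrpn domain. The chains had 5 regions each, over 6.80 kb (59733310 to 59740111) and 6.17 kb (59765661 to 59771827), and stood 25.5 kb apart with 3 regions between them. The widths were 202, 300, 409, 218 and 447 bp in the first and 310, 344, 949, 573 and 391 bp in the second. These 10 regions were part of the 31 regions in Snhg14. The nearest protein-coding ends, of Snrpn and Snurf, were 242 and 211 kb away from the first and second chain. The snoRNA genes here form a tandem array, with 39 copies within 30 kb of the chains at a spacing of 2501 to 2547 bp. The middles of the 10 regions lay 41 to 2494 bp past the start of the preceding snoRNA, and 2 of the 10 overlapped a snoRNA gene. In order, these distances were 2187.5, 2226.5, 41, 968.5 and 1040 bp in the first chain. In the second they were 1727.5, 1004.5, 2038, 795 and 2494 bp. Several distances were thus close to one another, and whether the regions keep to set positions in the repeat was not tested. Whether reads in this repeat were placed uniquely was not tested. With genes over 500 kb of every kind left out, in place of protein-coding ones, this pair and the T cell receptor beta chain are lost, and 16 chains with 88 regions remain.

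**Figure D4:**
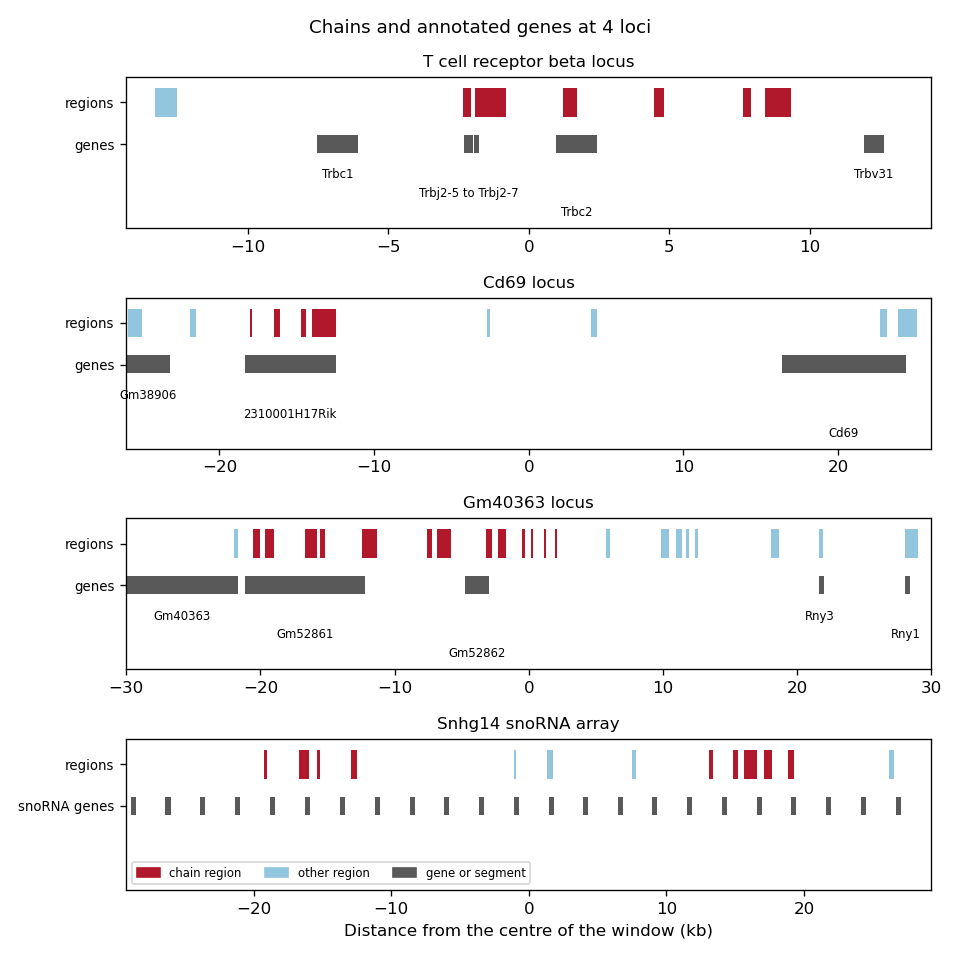
Chain regions (red), other accessible regions (blue) and genes or segments (grey) at 4 loci, with the distance from the centre of each window in kb on the x axis; the shortest genes are drawn wider than their length so that they can be seen. The chain regions overlap Trbj2-5 to Trbj2-7 and Trbc2 in the T cell receptor beta locus, and all of them lie over 2310001H17Rik at Cd69. The 13 regions of the Gm40363 pair are followed by further regions up to Rny1. Of the 10 regions of the Snhg14 pair, 2 overlap one of the evenly spaced snoRNA genes.

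The other chains outside protein-coding genes had less annotation around them. The Kdm7a chain, 50.2 kb before the start of that histone demethylase gene, had 5 regions in 2.48 kb on chromosome 6 (39257021 to 39259497), all inside the lncRNA gene Gm34147; its widths were 137 to 495 bp and 2 of its 4 gaps were 150 bp or less. The Tcp10c chain on chromosome 17 (13540311 to 13545209) had 5 regions of 218 to 655 bp inside the lncRNA gene 2700054A10Rik, 163 kb from Tcp10c. The Gm45988 chain on chromosome 7 (64073402 to 64082959) had 5 regions of 918, 180, 735, 445 and 207 bp, 47.9 kb from the gene and over no annotated gene of any kind. The Dhx40 chain on chromosome 11 (86810699 to 86815981) also overlapped no gene. Its 6 regions, of 202 to 575 bp, began 2.82 kb from the start-side end of Dhx40, which encodes a DEAH-box helicase and is on the minus strand.

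Besides Ets1, 6 chains lay inside a protein-coding gene. In Jade1, which encodes a scaffold of a histone acetyltransferase complex, 5 regions of 172 to 363 bp stood within 2.56 kb on chromosome 3 (41563155 to 41565711), 7.42 kb from the lower end of the gene and among its internal start sites. This compact chain, with 1.96 regions per kb, contrasts with the one in Tapt1 on chromosome 5 (44217599 to 44227375), where 6 regions spread over 9.78 kb, 0.614 per kb. In Gramd1a, which encodes a cholesterol transfer protein of the endoplasmic reticulum, 5 regions of 128 to 598 bp lay over 5.84 kb on chromosome 7 (31148218 to 31154053). An annotated start of Gramd1a lies inside that chain, and its window was 74 bp from the nearest region. In Sntb1, the gene of a syntrophin that links dystrophin to other proteins, 5 regions lay over 8.11 kb on chromosome 15 (55843200 to 55851308), 56.0 kb from the nearest end.

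The Tmem267 chain had the widest regions by median. Its 5 regions, over 6.08 kb on chromosome 13 (119596593 to 119602671), were 555, 1094, 766, 259 and 818 bp wide, and they covered 57.4% of the span, the highest share of any chain. It lay 7.79 kb from the higher end of Tmem267 (119488086 to 119610459). Beyond that end lies Ccl28, which encodes a chemokine of mucosal tissues. In the flanks of 50 kb there were 5 other regions.

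With longer gaps the share of genes with a chain was higher over all protein-coding genes as well as in the lists. With gaps of up to 5000 bp the chains were assigned to 0.368% of all protein-coding genes, against 0.0871% by the rule used here. Of the 203 listed genes on autosomes 11 had a chain (5.42%, against 1.48%). Besides Btg2, Cd69 and Ets1 these included the transcription factor genes Gata3 and Fli1, Stat4 of interleukin-12 signalling, the homing gene S1pr1, Il2ra, Cd6, which encodes a surface receptor that tunes T cell receptor signals, and Dusp2, a phosphatase gene induced on activation. With regions at gene ends included in the chains, they were assigned to 0.16% of all protein-coding genes and to 4 listed genes, Btg1, the paralog of Btg2, together with Btg2, Cd69 and Ets1.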

How the data were processed

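ATAC-seq libraries came from naive CD4 T cells of Ddx55-knockout (2) and wild-type mice (2). The deposited list has 3 columns (sequence name, start, end) and no other value, such as a count, score or library. Per the submitters' processing notes, the tools were MACS3 3.0.0b1, SAMtools 1.15.1, Bowtie2 2.5.08 and fastp 0.12.4, with build mm10. Settings, the joining of peaks, duplicates, the transposase offset and excluded intervals were not given in the sources used here, and each can split or join regions. BED starts were converted to 1-based positions. Genes came from RefSeq GRCm38.p6, and promoter windows from a RefSeq table that held the assigned gene of 11 of the 19 chains. Chains, shares with 95% exact binomial intervals and gene lists were computed with Python 3.11.15 and pandas 2.3.3; the chain search was tested on simulated data. No test between genotypes was possible, so the planned one was not run. Motifs were planned for chain regions, but without a genome only promoter windows were searched. The members and lists were chosen with earlier results of these data known. The naming rule took the largest, densest and widest chains and those at listed genes; some genes that these rules select are not reported here.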

Additional observations from a re-analysis of the deposited data

How the results depend on the processing

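The median region width in chains stayed between 299 and 345 bp under all 11 alternatives, inside the interval of the main value. Keeping genes over 500 kb left the same 19 chains, and so did ending chains at a region near a gene end. Those alternatives repeat the main chain values here and in the shares below. The width of other distal regions was not computed for each alternative, so the difference between them was not followed. The interval of the chain median held their main value of 265 bp with gaps of 2000 bp (219 to 363 bp) and with gene ends of every kind (223 to 363 bp). It also did so with long genes of every kind left out (259 to 363 bp). The number of chains, 19, was 10 with gaps of 2000 bp, 81 with gaps of 5000 bp, 90 with 4 or more regions, 34 with regions at gene ends included, 11 with gene ends of every kind of gene, 43 with the dropped intervals kept and 9 without regions under 200 bp. The share of chain regions inside a protein-coding gene, 34.6%, was 54.4% with gaps of 5000 bp, 49.2% with 4 or more regions, 48.4% with gene ends included, 63.2% with every kind of gene and 20.4% without narrow regions. Against the other distal regions of the same setting, it was higher under 3 of 11 alternatives (gaps of 5000 bp, 4 or more regions, every kind of gene) and lower under 8, so its direction was not stable. The share of listed genes with a chain, 1.48%, was 5.42% with gaps of 5000 bp and 4.93% with 4 or more regions, where there were more chains. Over all protein-coding genes the share was 0.0871% by the rule used here and 0.368% with gaps of 5000 bp. It was not computed for 4 or more regions, so the listed share there has no share of all genes beside it. Merging gaps of 150 bp or less left 15 chains, without Cd69; gaps of 2000 bp lost Btg2 and Ets1, leaving out regions under 200 bp lost Cd69, and gene ends of every kind left only Ets1 of the listed genes. Leaving out genes over 500 kb of every kind (16 chains) was chosen after seeing the data. No paired analysis was possible because the list carries no value per library. Depth per library is unknown, so regions that failed to be called cannot be told apart from closed chromatin.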
